A study of Arabidopsis thaliana with 305 samples.

Results

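Transcript levels of the 5 genes that make salicylic acid from isochorismate in Arabidopsis thaliana leaves were followed across genotype, bacterium and time. The genes are ICS1 (AT1G74710), ICS2 (AT1G18870), EDS5 (AT4G39030), PBS3 (AT5G13320) and EPS1 (AT5G67160). They were picked by their identifiers from the 25320 genes of the deposited count table, and all 5 passed the filter on low counts. Plants were 6 weeks old and were grown in short days of 8 h light. Leaves were hand-infiltrated with bacteria that, by the series description, were the Pf0 strain, a non-pathogenic Pseudomonas fluorescens able to inject proteins into plant cells. The labels' treatment protocol names only Pst DC3000 strains, for growth curves, so the sources differ on the bacterium. The bacteria delivered the effector AvrRps4, AvrRpt2 or AvrRpm1, or carried an empty vector (EV). Discs were taken at 0.5, 4 and 8 h, and from untreated leaves at T0.

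The genotypes were nrg1.1 nrg1.2 (nrg1), the adr1 triple mutant that lacks ADR1, ADR1-L1 and ADR1-L2 (adr1), the mutant that lacks both helper NLR families (helperless), and the wild-type accession Col-0. Helper NLRs, also called RNLs, are immune proteins that act downstream of the receptors that detect effectors. The series description calls the immunity triggered by AvrRps4 fully dependent on them, that by AvrRpt2 partly dependent and that by AvrRpm1 independent. Each of the 52 groups had n = 3 replicates, and replicate totals ran from 4276389 to 28926563 counts. The labels do not say that replicates came from separate plants, so p-values measure the spread between these samples. The genotype labels were checked in part, by dividing ADR1-L1 counts by ADR1-L2 counts. The ratio was 32.64 to 658.97 in 135 infiltrated libraries of adr1 and helperless and 1.15 to 5.56 in 137 of Col-0 and nrg1. It does not tell adr1 from helperless or nrg1 from Col-0, so those distinctions rest on the labels. In 10 other infiltrated libraries the ratio went against the genotype label. T0 libraries were not judged, since the ratio there was 2.39 to 42.2 in adr1 and helperless and 1.51 to 3.67 in Col-0 and nrg1, and 4 of the 11 mutant T0 libraries lay between 1.15 and 5.56. The genotype of the mutant T0 samples therefore rests on the label. The 10 libraries that go against their label include libraries of EV at 8 h in all 4 genotypes. The rest are of AvrRpm1, at 8 h in adr1 and at 4 h in nrg1. For comparisons that use any of these 10, results are also given without them, though not the fold change of every gene. Root markers were at or near 0 CPM in all samples (CASP1, EXPA7 and COBL9), and photosynthetic markers were abundant in T0 leaves.

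Salicylic acid is a phenolic plant hormone that drives defence gene expression and systemic resistance. In Arabidopsis leaves under attack most of it is made from chorismate in plastids: isochorismate synthase, encoded by ICS1 and its close copy ICS2, converts chorismate to isochorismate. The transporter EDS5 exports it to the cytosol, where PBS3 couples it to glutamate, and the product then breaks down to salicylic acid by itself or faster with the acyltransferase-family enzyme EPS1. Transcription of ICS1 is known to be driven by SARD1 and CBP60g, a pair of related DNA-binding proteins, and by WRKY factors, downstream of the lipase-like proteins EDS1 and PAD4.

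ICS1 lies at chr1:28070295-28074177 and ICS2 at chr1:6515373-6519395, both on the plus strand of TAIR10.1, with 12 and 15 exons. EDS5 lies at chr4:18185437-18189224 with 12 exons and PBS3 at chr5:4267456-4271064 with 5 exons, both on the plus strand. EPS1 is a gene of 1 exon on the minus strand at chr5:26797596-26799265. The coding sequences of ICS1 and ICS2 were identical at 79.7% of 1677 aligned bases. No 50-base stretch of the ICS1, PBS3 or EPS1 transcripts occurred in another gene, while 38 of 2093 stretches of ICS2 and 164 of 2212 of EDS5 did. EDS5 overlaps AT4G39040 and ICS2 overlaps AT1G18871, in each case on the other strand, and since no strand setting is stated for the counts their reads cannot be told apart with certainty. AT1G18871 had 21 counts in all replicates together. Between T0 and EV at 4 h AT4G39040 moved opposite to EDS5: its level was 1.95 to 8.72 CPM with EV at 4 h and 37.9 to 51.7 CPM at T0 over the 4 genotypes. At 0.5 h with EV it still had 27.6 to 45.9 CPM. At 4 h its median was 8.76 CPM with AvrRps4, 4.27 with AvrRpt2 and 6.95 with AvrRpm1, against 5.09 with EV. Its part in the EDS5 counts was not tested.

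The 250 bases before the annotated start are shown for the 3 genes that rose together in the results below and for ICS2, the copy that did not follow them. They were read from the TAIR10.1 genome on the plus strand, at chr1:28070045-28070294 for ICS1, chr4:18185187-18185436 for EDS5, chr5:4267206-4267455 for PBS3 and chr1:6515123-6515372 for ICS2. Capitals mark TTGAC, the core of the W box bound by WRKY factors, and GAAATTT, the element bound by SARD1 and CBP60g, each on either strand. The core TGACG, bound by TGA factors, was searched too, and it overlaps TTGAC where the letters TTGACG occur.
ICS1: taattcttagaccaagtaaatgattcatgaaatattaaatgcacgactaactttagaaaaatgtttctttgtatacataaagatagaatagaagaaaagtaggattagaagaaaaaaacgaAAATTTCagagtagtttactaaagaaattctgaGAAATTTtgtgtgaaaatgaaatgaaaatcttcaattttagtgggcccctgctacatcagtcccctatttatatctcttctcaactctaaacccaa
EDS5: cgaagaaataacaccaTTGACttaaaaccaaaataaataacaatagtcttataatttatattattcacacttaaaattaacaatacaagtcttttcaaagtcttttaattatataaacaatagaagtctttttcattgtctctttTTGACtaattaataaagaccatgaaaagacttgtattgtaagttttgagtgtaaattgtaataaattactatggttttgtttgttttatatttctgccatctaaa
PBS3: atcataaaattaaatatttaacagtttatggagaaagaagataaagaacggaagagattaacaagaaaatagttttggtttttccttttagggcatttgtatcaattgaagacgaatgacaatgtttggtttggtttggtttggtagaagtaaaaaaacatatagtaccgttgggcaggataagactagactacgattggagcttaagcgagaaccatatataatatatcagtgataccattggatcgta
ICS2: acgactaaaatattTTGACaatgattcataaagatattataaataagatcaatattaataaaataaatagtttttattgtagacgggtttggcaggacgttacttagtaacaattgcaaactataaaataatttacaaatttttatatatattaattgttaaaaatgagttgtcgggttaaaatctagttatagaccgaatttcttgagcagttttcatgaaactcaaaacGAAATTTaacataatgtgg
The ICS1 window held GAAATTT 2 times, and the ICS2 window held it once. The EDS5 window held TTGAC 2 times and the ICS2 window once, while the PBS3 window held none of the motifs searched. Of 27443 promoters of the same length, 44.9% held TTGAC, 12.5% held GAAATTT and 18.6% held TGACG, which none of the 5 genes had in this window. Over 1000 bases TTGAC occurred 2 times before ICS1, ICS2, PBS3 and EPS1 and 5 times before EDS5, and 88.1% of promoters held it. GAAATTT occurred 2 times before both ICS1 and ICS2 in that window, 1 time before EDS5 and 0 times before PBS3 and EPS1. It was held by 38.3% of promoters.

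Levels are given as CPM, read counts scaled to library size after TMM normalisation. ICS1, EDS5 and PBS3 covered a wide span over the 52 groups. ICS1 averaged 1188 ± 526.3 CPM (SD, n = 3) in its highest group, AvrRpt2 at 4 h in nrg1, and 15.3 ± 4.12 CPM in its lowest, T0 in adr1. PBS3 was highest in the same group, at 1942 ± 670.9 CPM, and lowest with AvrRps4 at 0.5 h in adr1, at 2.06 ± 1.02 CPM. EDS5 ranged between 916 ± 319 CPM with AvrRpm1 at 4 h in nrg1 and 2.96 ± 0.537 CPM at T0 in nrg1. ICS2 and EPS1 stayed low: ICS2 was highest at 4.87 ± 1.80 CPM with AvrRps4 at 4 h in adr1, and EPS1 at 5.43 ± 0.516 CPM at T0 in nrg1. Per kilobase of exon, the median group mean was 20.4 CPM for ICS1, 18.3 for EDS5 and 17.2 for PBS3, against 1.07 for ICS2 and 1.21 for EPS1. A replicate held 95 to 15258 counts of ICS1 but 0 to 86 of ICS2 and 2 to 83 of EPS1, so ICS2 and EPS1 are measured with much less depth.

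**Figure D1:**
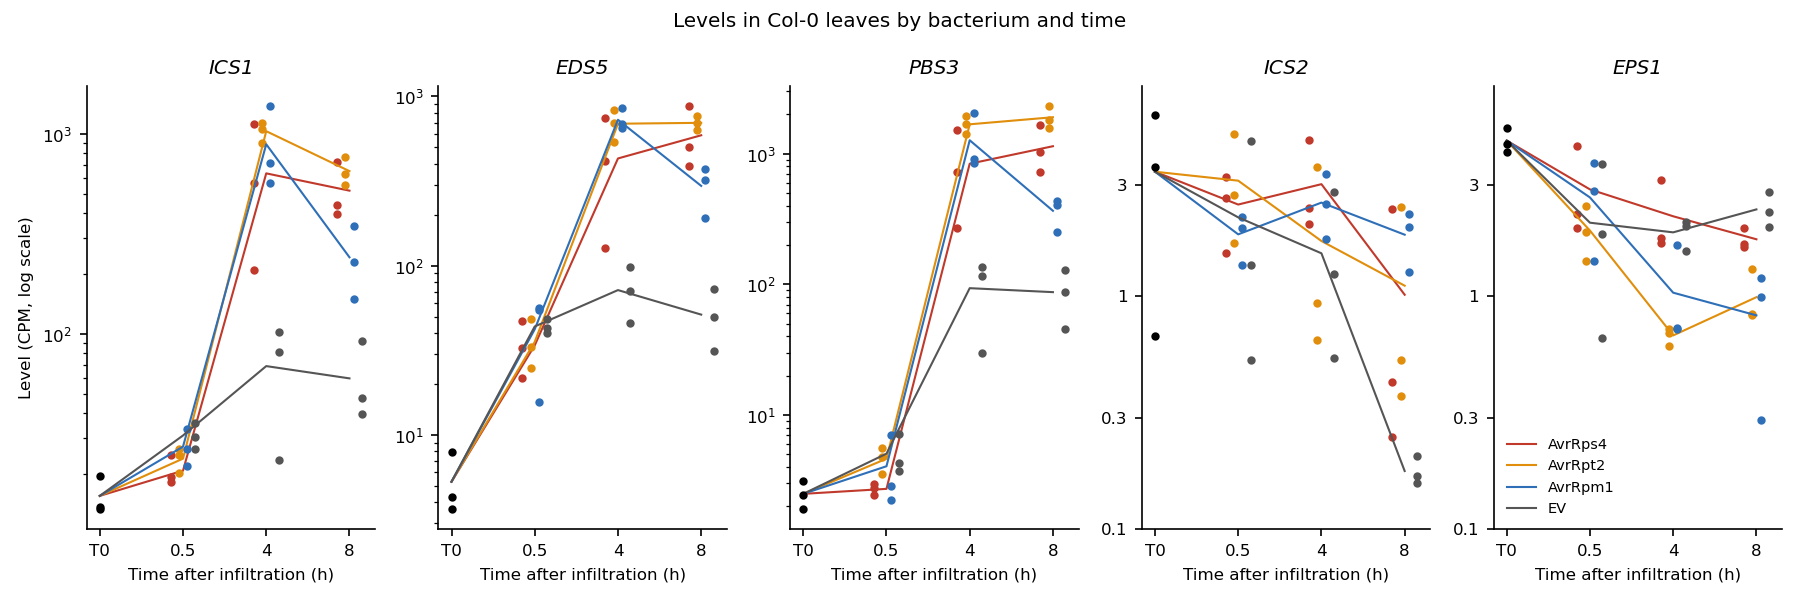
Levels in Col-0 leaves (CPM, log axis) at T0 and at 0.5, 4 and 8 h after infiltration, with a panel for each gene; points are replicates, and lines join the means of each bacterium (n = 3). ICS1, EDS5 and PBS3 separated from EV with all 3 effectors at 4 and 8 h, ICS2 fell with EV at 8 h, and EPS1 was highest at T0.

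In Col-0 the order of the group means began with AvrRpt2 and AvrRpm1 at 4 h for ICS1, AvrRpm1 at 4 h for EDS5 and AvrRpt2 at 8 h for PBS3. For each of these 3 genes the 6 effector groups of 4 and 8 h stood above all EV groups, and T0 was lowest. Most neighbours in the order overlapped in their replicates: 9 of 12 for ICS1, 10 of 12 for EDS5 and PBS3, 11 of 12 for ICS2 and 12 of 12 for EPS1. For PBS3 and EDS5 the lowest effector group of these, AvrRpm1 at 8 h, did not overlap the next one down, EV at 4 h, and for ICS1 it overlapped neither neighbour.

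EV was first set against T0, a comparison in which infiltration, the bacteria and the elapsed time cannot be told apart. With EV in Col-0, EDS5 was the gene of the 5 that rose by 0.5 h, ICS1 and PBS3 had joined it by 4 h, and EPS1 fell. EDS5 had 40.1, 42.8 and 48.2 CPM with EV at 0.5 h and 7.91, 4.30 and 3.65 CPM at T0 (log2 fold change 3.05 ± 0.57 (SE), adjusted p = 5.45e-06). All 3 infiltrated replicates lay far above the T0 range. ICS1 had 35.9, 30.5 and 26.6 CPM with EV at 0.5 h against 13.6, 19.6 and 13.3 CPM at T0, and PBS3 had 7.19, 4.26 and 3.71 CPM against 3.12, 1.91 and 2.44 CPM. Neither range overlapped, but neither change passed the test (1.00 ± 0.55, adjusted p = 0.168 for ICS1 and 1.02 ± 0.66, adjusted p = 0.253 for PBS3). EPS1 had 3.70, 1.85 and 0.663 CPM with EV at 0.5 h and 5.30, 4.18 and 4.51 CPM at T0, with no overlap (-1.15 ± 0.40, adjusted p = 0.0203). That fall did not pass without replicate 2 or without replicate 3, at a log2 fold change of -1.84 to -0.78 over the replicates left out. Of all genes tested, 14.1% were called higher and 9.22% lower at 0.5 h. In discs of whole leaf, a change in the share of cells that express a gene and a change in RNA per cell cannot be told apart.

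At 4 h PBS3, the conjugating enzyme, showed the largest change of the 5 genes under EV. It had 135, 29.7 and 116 CPM with EV at 4 h against 3.12, 1.91 and 2.44 CPM at T0, a log2 fold change of 5.23 ± 0.73 (adjusted p = 2.21e-09). EDS5 had 98.6, 45.9 and 70.5 CPM with EV at 4 h (3.76 ± 0.58, adjusted p = 3.91e-08), and ICS1 80.8, 23.4 and 103 CPM (2.15 ± 0.57, adjusted p = 0.000609). All of these replicates were above T0, with replicate 2 the lowest for each gene. EPS1 stayed low with 2.00, 1.57 and 2.08 CPM (-1.31 ± 0.40, adjusted p = 0.00293). At 4 h 23.4% of genes were called higher and 26.1% lower, so a call for a single gene was common. At 8 h with EV, ICS1 (1.95 ± 0.56), EDS5 (3.28 ± 0.57) and PBS3 (5.13 ± 0.73) were still above T0, with 19.3% of genes called higher and 22.9% lower. Without the replicate that goes against its label those changes were 1.53 ± 0.61, 3.35 ± 0.60 and 5.19 ± 0.76, and each passed, while the ICS1 call was lost when replicate 3 was left out of every group.

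ICS2 did the opposite of ICS1 under EV at 8 h. Its level was 0.205, 0.169 and 0.158 CPM with EV at 8 h in Col-0, which is 4, 2 and 2 counts, against 6.02, 0.676 and 3.58 CPM at T0, or 83, 11 and 50 counts. The ranges did not overlap, although T0 replicate 2 was far below the others (log2 fold change -4.15 ± 0.96, adjusted p = 0.000136). The same comparison gave -4.47 ± 1.04 in nrg1, -2.88 ± 0.88 in adr1 and -3.51 ± 0.87 in helperless, and all 4 passed. They passed too without the libraries that go against their label, at -4.03 in Col-0, -4.47 in nrg1, -2.55 in adr1 and -3.64 in helperless. Of all genes, 22.9% were called lower in Col-0 at 8 h, 23.5% in nrg1, 21.7% in adr1 and 21.9% in helperless.

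In the mutants EDS5 and PBS3 were higher with EV than at T0 too. EDS5 rose at every time in all 3: by a log2 fold change of 3.61, 5.17 and 3.79 at 0.5, 4 and 8 h in nrg1, 2.62, 2.97 and 2.86 in adr1 and 2.90, 3.47 and 3.09 in helperless. In adr1 the EDS5 call at 0.5 h was lost without replicate 2, with an adjusted p of 0.0773. PBS3 rose at 4 h by 5.83 ± 0.76 in nrg1, 3.48 ± 0.70 in adr1 and 3.19 ± 0.68 in helperless, and at 8 h by 4.69, 4.43 and 3.98. Without the libraries that go against their label, the changes at 8 h in nrg1, adr1 and helperless were 3.94, 2.44 and 2.81 for EDS5 and 4.88, 3.66 and 3.62 for PBS3, and each passed. ICS1 rose at 4 h by 2.84 ± 0.58, 1.37 ± 0.56 and 1.27 ± 0.55. At 8 h ICS1 passed in nrg1 (1.25 ± 0.55, and 1.36 without those libraries) and in adr1 (1.56 ± 0.56) but not in helperless (0.88, adjusted p = 0.169). The adr1 value was 1.36 ± 0.62 without the libraries that go against their label and no longer passed, at an adjusted p of 0.0607. The ICS1 calls in adr1 and helperless at 4 h and in nrg1 and adr1 at 8 h were each lost without replicate 2 and without replicate 3, and the nrg1 one also without replicate 1. EPS1 was lower at 4 h in nrg1 (-1.55 ± 0.41), adr1 (-1.77 ± 0.42) and helperless (-1.20 ± 0.40), the last lost without replicate 2. At 8 h it was lower in nrg1 (-1.59 ± 0.40, and -1.48 without those libraries) and in helperless (-1.07 ± 0.39), where the call was lost without those libraries (-0.94, adjusted p = 0.0574) and without replicate 2 or 3. At 0.5 h it was lower in nrg1 (-1.09 ± 0.40), a call lost without replicate 3. In adr1 at 0.5 h it did not pass with edgeR (-1.02 ± 0.41, adjusted p = 0.0529). It passed with the replicate number as a block (-1.05, adjusted p = 0.0351) and with DESeq2 (-1.09, adjusted p = 0.0185). It passed also in the fit without those libraries (-1.10, adjusted p = 0.0248), none of which is in this comparison. Genes called higher made up 13.9%, 12.5% and 12.6% of all genes at 0.5 h in nrg1, adr1 and helperless, 23.3%, 21.6% and 20.7% at 4 h, and 19.7%, 17.4% and 18.2% at 8 h. Genes called lower made up 7.24%, 5.72% and 6.05% at 0.5 h and 26.1%, 24.4% and 22.7% at 4 h.

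Set against Col-0 directly, none of the 5 genes passed in any mutant at T0 or under EV at any time with edgeR, of 60 pairs of gene and comparison. At an unadjusted p under 0.05 there were 4 pairs, and DESeq2 called 0. PBS3 under EV at 4 h had the lowest p. It had 18.6, 17.2 and 23.7 CPM in helperless and 19.2, 23.5 and 34.8 CPM in adr1, against 135, 29.7 and 116 CPM in Col-0. The helperless range lay below that of Col-0, while 1 adr1 replicate lay inside it (-2.24 ± 0.63, adjusted p = 0.849, and -1.85 ± 0.62, adjusted p = 1). The share of genes called lower in helperless under EV at 4 h was 0.00%, and the share called higher was 0.0203%.

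At 0.5 h no difference between an effector and EV was detected for the pathway. Of 60 pairs of gene, effector and genotype, 0 passed with edgeR, 0 had an unadjusted p under 0.05 and 0 passed with DESeq2. In Col-0 at most 0.0152% of all genes were called higher and 0.00% lower at that time, and in helperless 0.00508% were called lower with each effector. ICS1 at 0.5 h had 18.2, 19.3 and 24.7 CPM with AvrRps4 and 35.9, 30.5 and 26.6 CPM with EV in Col-0, so these ranges did not overlap even though no call was made.

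At 4 h ICS1, EDS5 and PBS3 were higher with all 3 effectors than with EV in Col-0, with replicate 1 of AvrRps4 closest to EV. AvrRpt2 and AvrRpm1 modify the host protein RIN4 at the plasma membrane, which the receptors RPS2 and RPM1 guard, while RPS4 works with RRS1 to sense AvrRps4. ICS1 had 208, 1122 and 569 CPM with AvrRps4, 1058, 1127 and 901 CPM with AvrRpt2 and 1372, 715 and 568 CPM with AvrRpm1, against 80.8, 23.4 and 103 CPM with EV. Every effector replicate was above every EV replicate, and AvrRps4 replicate 1 was the lowest. The log2 fold changes of ICS1 were 3.20 ± 0.59 (adjusted p = 0.000371), 3.90 ± 0.61 (3.82e-06) and 3.68 ± 0.60 (5.06e-06) for AvrRps4, AvrRpt2 and AvrRpm1. All effector comparisons in a genotype at a given time share the same EV replicates.

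The transporter EDS5 had 128, 746 and 415 CPM with AvrRps4, 540 to 832 CPM with AvrRpt2 and 647 to 849 CPM with AvrRpm1 at 4 h in Col-0, against 98.6, 45.9 and 70.5 CPM with EV. Again the groups did not overlap, with log2 fold changes of 2.58 ± 0.55 (adjusted p = 0.00333), 3.26 ± 0.56 (2.97e-05) and 3.34 ± 0.56 (1.1e-05). PBS3 had 269, 1518 and 730 CPM with AvrRps4, 1702, 1937 and 1405 CPM with AvrRpt2 and 2049, 912 and 846 CPM with AvrRpm1, against 135, 29.7 and 116 CPM with EV. Its log2 fold changes were 3.17 ± 0.65 (adjusted p = 0.00255), 4.17 ± 0.68 (1.06e-05) and 3.76 ± 0.67 (2.84e-05). So 3 of the 5 genes were called higher with each effector, where 0.665% of all genes were called higher with AvrRps4, 2.43% with AvrRpt2 and 8.91% with AvrRpm1. None of the 5 was called lower, as were 0.0508% of all genes with AvrRpt2 and 1.88% with AvrRpm1. Without replicate 2, in which EV was lowest and AvrRps4 highest, the AvrRps4 and AvrRpt2 calls were lost, leaving 3 of 9 calls, all with AvrRpm1. ICS1 with AvrRps4 had then a log2 fold change of 2.07, the lowest of the 3 such values.

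EPS1 and ICS2 were not called higher at 4 h in Col-0. EPS1 had 0.614, 0.698 and 0.724 CPM with AvrRpt2 at 4 h in Col-0, or 7, 6 and 10 counts, against 2.00, 1.57 and 2.08 CPM with EV. All 3 values lay below the EV range, and the change did not pass with edgeR (-1.44 ± 0.47, adjusted p = 0.0706). It did pass with DESeq2 and with the groups of the comparison alone. No library of this comparison goes against its label, and in the fit without such libraries the change passed at an adjusted p of 0.0498. It passed too with libraries not summed, a fit that counts the libraries of a replicate as separate samples, so its p-values can be too small.

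**Figure D2:**
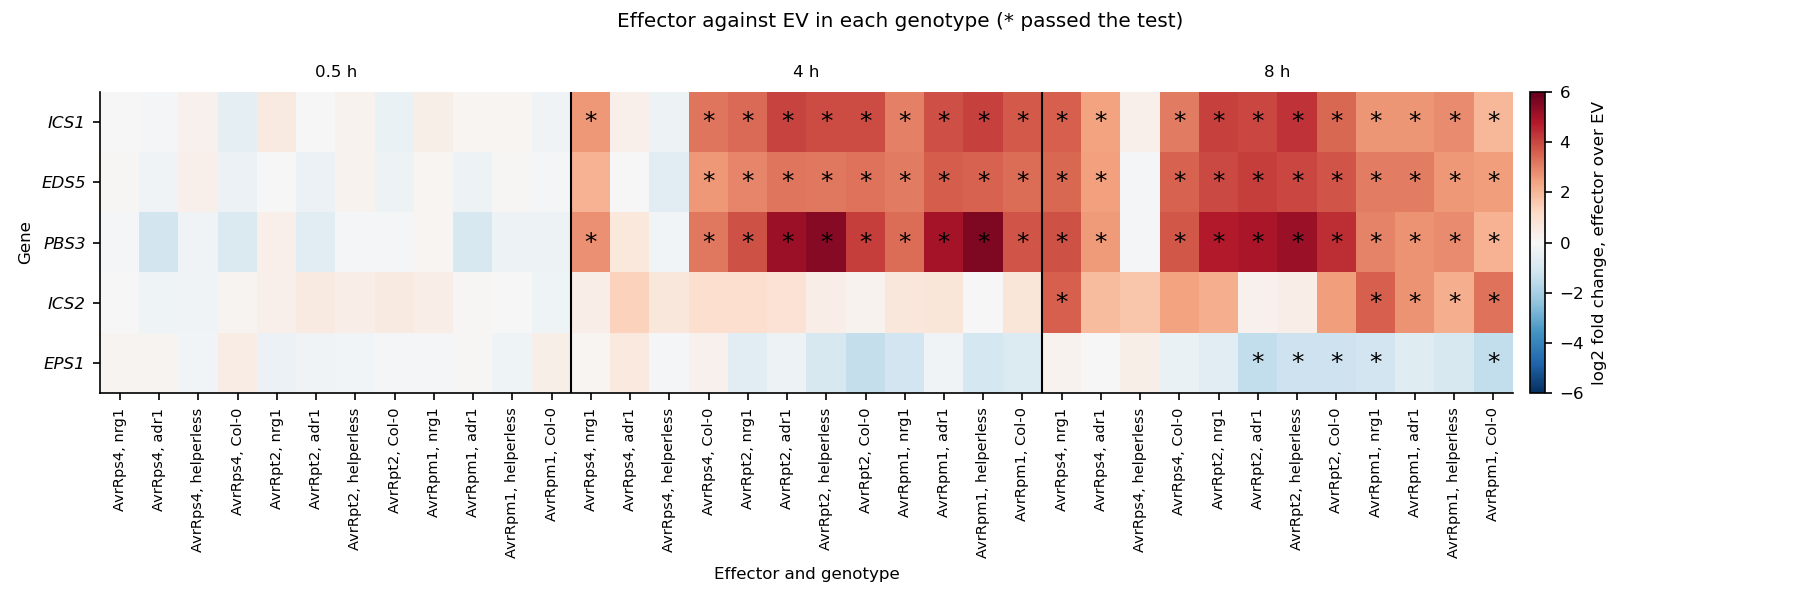
Log2 fold change of each gene (rows) for each effector over EV in each genotype (columns), in blocks of 0.5, 4 and 8 h; red is higher with the effector, blue lower, and an asterisk marks a change that passed the test. ICS1, EDS5 and PBS3 passed in all 4 genotypes with AvrRpt2 and AvrRpm1 at 4 and 8 h, and in helperless none passed with AvrRps4.

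At 8 h ICS1, EDS5 and PBS3 were again higher with every effector than with EV in Col-0, with the lowest levels under AvrRpm1. ICS1 had 396, 439 and 721 CPM with AvrRps4, 766, 553 and 629 CPM with AvrRpt2 and 345, 229 and 149 CPM with AvrRpm1, against 47.7, 39.6 and 92.2 CPM with EV. No effector replicate fell into the EV range. The EV replicate at 92.2 CPM is the one whose libraries go against their label, and the log2 fold changes of ICS1 were 3.12 ± 0.58, 3.44 ± 0.59 and 2.01 ± 0.56 with it and 3.56, 3.85 and 2.45 without it. EDS5 had 389, 502 and 875 CPM with AvrRps4, 693, 636 and 764 CPM with AvrRpt2 and 373, 322 and 192 CPM with AvrRpm1, against 72.7, 31.4 and 49.9 CPM with EV. PBS3 had 719, 1037 and 1671 CPM with AvrRps4, 2316, 1810 and 1588 CPM with AvrRpt2 and 437, 408 and 253 CPM with AvrRpm1, against 129, 45.5 and 86.8 CPM with EV. The log2 fold changes of EDS5 were 3.52 ± 0.57, 3.76 ± 0.58 and 2.52 ± 0.55, and those of PBS3 were 3.71 ± 0.67, 4.45 ± 0.69 and 2.07 ± 0.62. Without that replicate they were 3.48, 3.68 and 2.48 for EDS5 and 3.68, 4.38 and 2.03 for PBS3. Each of these 9 changes passed, with adjusted p-values between 4.47e-07 and 0.00484. The share of all genes called higher was 3.84% with AvrRps4, 10.2% with AvrRpt2 and 17.1% with AvrRpm1. Without replicate 2 the AvrRpm1 calls of ICS1 and PBS3 were lost.

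At 8 h ICS2 and EPS1 moved in opposite directions with AvrRpm1. ICS2 had 2.25, 1.99 and 1.28 CPM with AvrRpm1 in Col-0, or 23, 22 and 16 counts, against 0.205, 0.169 and 0.158 CPM with EV (3.26 ± 1.00, adjusted p = 0.00551). The groups did not overlap. With AvrRps4 it had 0.249, 2.37 and 0.427 CPM and with AvrRpt2 0.533, 2.43 and 0.372 CPM, each with replicate 2 far above the others, and neither passed with edgeR (2.41 ± 1.03, adjusted p = 0.139, and 2.50 ± 1.04, adjusted p = 0.063). The AvrRpt2 change of ICS2 did pass with the replicate number as a block (2.65, adjusted p = 0.0319), with DESeq2 (2.59, adjusted p = 0.0278) and with libraries not summed. EPS1 had 0.829, 1.31 and 0.838 CPM with AvrRpt2 and 0.294, 0.993 and 1.197 CPM with AvrRpm1, against 2.31, 2.80 and 1.98 CPM with EV. Both groups lay below EV and passed (-1.26 ± 0.43, adjusted p = 0.0233, and -1.47 ± 0.44, adjusted p = 0.00472), where 4.58% and 11.8% of all genes were called lower (1.22% with AvrRps4, where none of the 5 was). The EPS1 call with AvrRpt2 was lost whichever replicate was left out, and that with AvrRpm1 without replicate 1 or 2. All 12 calls in Col-0 at 8 h passed also without the libraries that go against their label, with ICS2 at 3.16 with AvrRpm1 and EPS1 at -1.43 with AvrRpt2 and -1.63 with AvrRpm1.

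Effectors were also set against each other within Col-0. At 4 h 0 of 15 pairs of gene and comparison passed with edgeR, 2 had an unadjusted p under 0.05 and 0 passed with DESeq2. At 8 h PBS3 was lower with AvrRpm1, at 437, 408 and 253 CPM, than with AvrRpt2, at 2316, 1810 and 1588 CPM (-2.38 ± 0.63, adjusted p = 0.00392), and the groups did not overlap. ICS1 was lower too, with 149 to 345 CPM against 553 to 766 CPM (-1.43 ± 0.55, adjusted p = 0.05 when rounded and under that threshold before rounding). The ICS1 call was lost under 6 of 10 alternatives, with adjusted p-values up to 0.224. Among them was leaving out the libraries that go against their label (-1.39, adjusted p = 0.0648). None of those libraries belongs to a Col-0 effector group, so in these comparisons that setting changes only the shared fit. Of all genes, 5.02% were called lower in this comparison. PBS3 was higher with AvrRps4 than with AvrRpm1 (719 to 1671 CPM against 253 to 437 CPM, 1.64 ± 0.62, adjusted p = 0.0329), where 7.39% of genes were called higher. The PBS3 difference between AvrRpm1 and AvrRpt2 was lost without replicate 2 (adjusted p = 0.0521), and that between AvrRps4 and AvrRpm1 without replicate 2 or 3. Both passed without the libraries that go against their label, at -2.35 and 1.65. EPS1 between AvrRps4 and AvrRpm1 was at 1.05 (adjusted p = 0.0664) and passed without those libraries (1.08, adjusted p = 0.0467). EDS5 differed in the same directions, -1.24 ± 0.52 between AvrRpm1 and AvrRpt2, without passing (adjusted p = 0.0767). No pair passed between AvrRps4 and AvrRpt2, where the log2 difference of PBS3 at 8 h was -0.74 (adjusted p = 0.625).

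The response to AvrRps4 was followed in each mutant. At 4 h in nrg1, which keeps the ADR1 family, ICS1 had 163, 479 and 1416 CPM with AvrRps4 against 104, 142 and 88.5 CPM with EV. All AvrRps4 values were above the EV range, with replicate 1 close to it, and ICS1 passed (2.62 ± 0.57, adjusted p = 0.0141), as did PBS3 (2.73 ± 0.64, adjusted p = 0.0328). EDS5 had 160, 269 and 929 CPM against 96.5, 145 and 77.8 CPM and did not pass with edgeR (2.09 ± 0.54, adjusted p = 0.0834), while it passed with DESeq2 (2.11, adjusted p = 0.0323) and with libraries not summed. The share of genes called higher was 0.163%, and both calls were lost without replicate 2, without replicate 3 and with the groups of the comparison alone.

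In adr1, which keeps NRG1, and in helperless no call was made with AvrRps4 at 4 h. ICS1 had 16.6, 18.4 and 112 CPM with AvrRps4 in adr1 against 35.2, 43.2 and 40.8 CPM with EV, with 2 replicates below and 1 above the EV range. In helperless it had 9.39, 25.1 and 56.3 CPM with AvrRps4 against 24.5, 37.7 and 48.8 CPM with EV, and the groups overlapped. The log2 fold changes of ICS1 were 0.31 ± 0.54 in adr1 and -0.29 ± 0.54 in helperless. With AvrRps4 at 4 h, 0 of the 5 genes passed with edgeR in either mutant, 0 had an unadjusted p under 0.05 and 0 passed with DESeq2, and 0.00% of all genes were called. The AvrRps4 response of adr1 minus that of nrg1 at 4 h was -2.32 ± 0.78 for ICS1, -2.13 ± 0.74 for EDS5 and -2.11 ± 0.86 for PBS3. Of the 5 genes 0 passed in that difference with edgeR (adjusted p = 1 for each), 3 had an unadjusted p under 0.05 and 0 passed with DESeq2, so the responses of adr1 and nrg1 at 4 h were not told apart.

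AvrRpt2 and AvrRpm1 raised ICS1, EDS5 and PBS3 in every mutant at 4 h. With AvrRpt2, ICS1 had 584, 1433 and 1548 CPM in nrg1, 664, 532 and 777 CPM in adr1 and 249, 580 and 828 CPM in helperless. Each of these values lay above every EV replicate of its genotype, and the log2 fold changes were 3.42 ± 0.59, 4.05 ± 0.61 and 3.90 ± 0.61. PBS3 with AvrRpt2 had 513, 938 and 1176 CPM in helperless against 18.6, 17.2 and 23.7 CPM with EV (5.46 ± 0.73, adjusted p = 6.31e-08), a gap with no overlap. With AvrRpm1, ICS1 had 1235, 976 and 481 CPM in nrg1, 797, 513 and 446 CPM in adr1 and 874, 817 and 194 CPM in helperless, and again no replicate fell into the EV range. Its log2 fold changes were 3.01 ± 0.58, 3.88 ± 0.61 and 4.08 ± 0.61, and the first was 2.85 ± 0.59 without the library that goes against its label, where EDS5 and PBS3 passed too, at 2.94 and 3.18 (3.1 and 3.35 with it). Genes called higher made up 2.53%, 1.29% and 2.30% of all genes with AvrRpt2 and 7.36%, 6.28% and 9.07% with AvrRpm1 in nrg1, adr1 and helperless. None of the 5 was called lower with all libraries, as were 0.112%, 0.0102% and 0.0203% of all genes with AvrRpt2 and 1.14%, 0.599% and 1.80% with AvrRpm1. EPS1 with AvrRpm1 in nrg1 was at -1.15 (adjusted p = 0.0931) and was called lower without the library that goes against its label (-1.76, adjusted p = 0.0113). In nrg1 the 3 AvrRpt2 calls and the ICS1 call with AvrRpm1 were lost without replicate 2, with adjusted p-values of 0.0521 to 0.0749.

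At 8 h the 3 genes were called higher with AvrRps4 in nrg1 and adr1, and none of the 5 was in helperless. ICS1 had 205, 518 and 601 CPM with AvrRps4 in nrg1 against 34.6, 49.0 and 27.4 CPM with EV, and 201, 95.8 and 426 CPM in adr1 against 31.9, 44.1 and 59.4 CPM with EV. In helperless it had 19.1, 38.4 and 48.1 CPM with AvrRps4 against 29.2, 19.5 and 36.3 CPM with EV. The groups were apart in nrg1 and adr1 and overlapped in helperless. ICS1 passed in nrg1 (3.58 ± 0.60, adjusted p = 7.78e-06) and in adr1 (2.42 ± 0.57, adjusted p = 0.00704), and had a log2 fold change of 0.31 ± 0.54 in helperless (adjusted p = 1). EDS5 had 139, 51.8 and 330 CPM with AvrRps4 in adr1 against 23.2, 21.9 and 49.1 CPM with EV (2.47 ± 0.55, adjusted p = 0.00348), and PBS3 had 277, 113 and 494 CPM against 34.0, 22.3 and 94.1 CPM (2.56 ± 0.64, adjusted p = 0.0121). Replicate 2 was the lowest AvrRps4 replicate of adr1 for all 3 genes, and still above EV. The 3 adr1 calls were lost without replicate 2, without replicate 3 and with the groups of the comparison alone, and passed without the libraries that go against their label, at 2.67 for ICS1, 2.94 for EDS5 and 3.38 for PBS3. In nrg1 ICS1 was at 3.51 without those libraries, EDS5 at 3.35 (3.44 with them) and PBS3 at 3.69 (3.82 with them), and each passed. Genes called higher with AvrRps4 were 2.94% in nrg1, 2.04% in adr1 and 0.00% in helperless. In helperless 0 of the 5 genes passed with edgeR, 0 had an unadjusted p under 0.05 and 0 passed with DESeq2, with and without those libraries in the edgeR test.

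**Figure D3:**
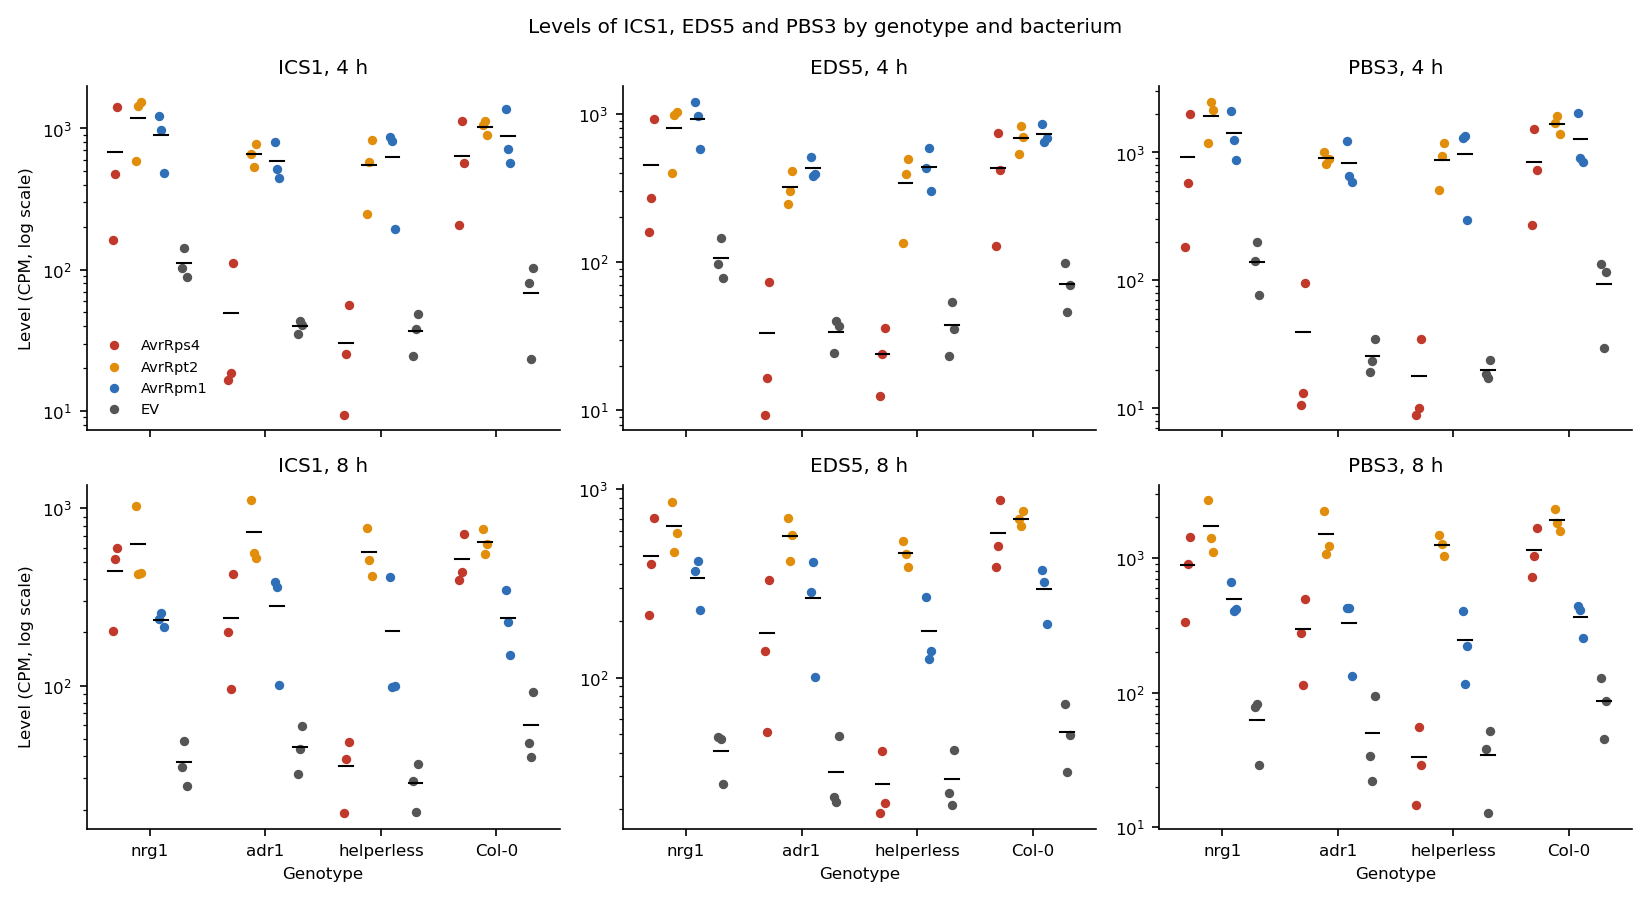
Levels of ICS1, EDS5 and PBS3 (CPM, log axis) by genotype and bacterium at 4 h (upper row) and 8 h (lower row); points are replicates and black lines are means (n = 3). With AvrRps4 the helperless replicates overlapped those of EV at both times, at 9.39 to 56.3 CPM for ICS1, while the adr1 replicates lay on both sides of EV at 4 h and above EV at 8 h.

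With AvrRpt2 and AvrRpm1 at 8 h, ICS1, EDS5 and PBS3 passed in all 3 mutants. The log2 fold changes of ICS1 with AvrRpt2 were 4.10 ± 0.61 in nrg1, 4.02 ± 0.61 in adr1 and 4.33 ± 0.62 in helperless, and with AvrRpm1 2.67 ± 0.57, 2.64 ± 0.57 and 2.84 ± 0.58. PBS3 reached 5.19 ± 0.72 with AvrRpt2 in helperless. Without the libraries that go against their label ICS1 was at 4.06, 4.28 and 4.52 with AvrRpt2 and 2.63, 2.69 and 3.05 with AvrRpm1 in nrg1, adr1 and helperless, and all 18 calls of ICS1, EDS5 and PBS3 passed. PBS3 moved most, to 5.75 with AvrRpt2 in adr1 without those libraries (4.91 with them) and to 3.31 with AvrRpm1 in adr1 (2.70 with them). Genes called higher made up 12.5%, 13.5% and 10.8% with AvrRpt2 and 17.2%, 19.8% and 19.2% with AvrRpm1. ICS2 passed with AvrRpm1 in all 3 mutants, at 3.57 ± 1.1 in nrg1, 2.69 ± 0.89 in adr1 and 2.17 ± 0.92 in helperless, and with AvrRps4 in nrg1 at 3.57 ± 1.08. It had 18, 13 and 23 counts with AvrRps4 in nrg1 against 0, 4 and 1 counts with EV, so that fold change leans on very few reads. Without the libraries that go against their label, the ICS2 calls with AvrRpm1 in adr1 (adjusted p = 0.0841) and helperless (0.073) and with AvrRps4 in nrg1 (0.0543) were lost, while that with AvrRpm1 in nrg1 passed at 3.63. Without replicate 3 all 4 of these ICS2 calls were lost, and without replicate 2 all but that with AvrRpm1 in nrg1. EPS1 fell with AvrRpt2 in adr1 (-1.48 ± 0.43) and helperless (-1.22 ± 0.44) and with AvrRpm1 in nrg1 (-1.15 ± 0.46), where 15.0%, 9.00% and 14.8% of genes were called lower. Each of these 3 EPS1 calls was lost without replicate 2. Without replicate 1 the helperless and nrg1 calls were lost too, and without replicate 3 those in adr1 and helperless. All 3 EPS1 calls passed without the libraries that go against their label, at -1.43, -1.30 and -1.19. EPS1 with AvrRpm1 in helperless passed as well (-1.07, adjusted p = 0.0468, against -0.98, adjusted p = 0.0517, with those libraries).

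The difference between genotypes was then tested itself, as the response to an effector in 1 genotype minus that in another. At 8 h the AvrRps4 response of helperless was below that of Col-0 for ICS1 (-2.81 ± 0.78, adjusted p = 0.03), EDS5 (-3.61 ± 0.76, adjusted p = 0.00148) and PBS3 (-3.76 ± 0.88, adjusted p = 0.00634), and 1.76% of genes were called lower. It was also below that of nrg1, by a log2 difference of -3.26 ± 0.79 for ICS1 (adjusted p = 0.016), -3.53 ± 0.75 for EDS5 (0.00358) and -3.87 ± 0.88 for PBS3 (0.00837), where 0.655% of genes were called lower. None of these 6 differences passed without the libraries that go against their label, although their sizes stayed near: -3.06, -3.25 and -3.34 against Col-0, with adjusted p-values of 0.122, 0.0537 and 0.122, and -3.01, -3.12 and -3.35 against nrg1, with 0.113, 0.0505 and 0.103. That setting leaves 2 EV replicates at 8 h in helperless and 2 in Col-0. Each of the 6 was also lost when replicate 3 was left out, and ICS1 against Col-0 whichever replicate was left out.

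Against adr1 the helperless response to AvrRps4 at 8 h did not pass, at -2.11 ± 0.77 for ICS1 (adjusted p = 0.379), -2.56 ± 0.75 for EDS5 (0.162) and -2.61 ± 0.87 for PBS3 (0.295), where 0.203% of genes were called lower. The adr1 response minus that of Col-0 at 8 h was -0.70 ± 0.76, -1.05 ± 0.73 and -1.15 ± 0.85, with adjusted p-values of 0.901 to 0.935. Without the libraries that go against their label, helperless minus adr1 was -2.17, -2.72 and -3.04 for ICS1, EDS5 and PBS3, and adr1 minus Col-0 was -0.53 for EDS5 and -0.30 for PBS3, and none passed. So the passing AvrRps4 response of adr1 at 8 h was told apart neither from that of Col-0 nor from that of helperless. At 4 h 0 of 45 differences from Col-0 passed with edgeR, 7 had an unadjusted p under 0.05 and 0 passed with DESeq2. The AvrRps4 differences at 4 h were -3.49 ± 0.79 for ICS1 (adjusted p = 0.0814) and -3.22 ± 0.75 for EDS5 (0.0961) in helperless minus Col-0, and -2.90 ± 0.78 and -2.62 ± 0.75 in adr1 minus Col-0 (0.698 for both). For nrg1 minus Col-0 the AvrRps4 difference of ICS1 was -0.58 ± 0.76 at 4 h and 0.46 ± 0.76 at 8 h. No difference passed for AvrRpt2 or AvrRpm1, where PBS3 in helperless minus Col-0 at 4 h was 1.29 ± 0.86 with AvrRpt2 and 1.85 ± 0.86 with AvrRpm1.

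**Figure D4:**
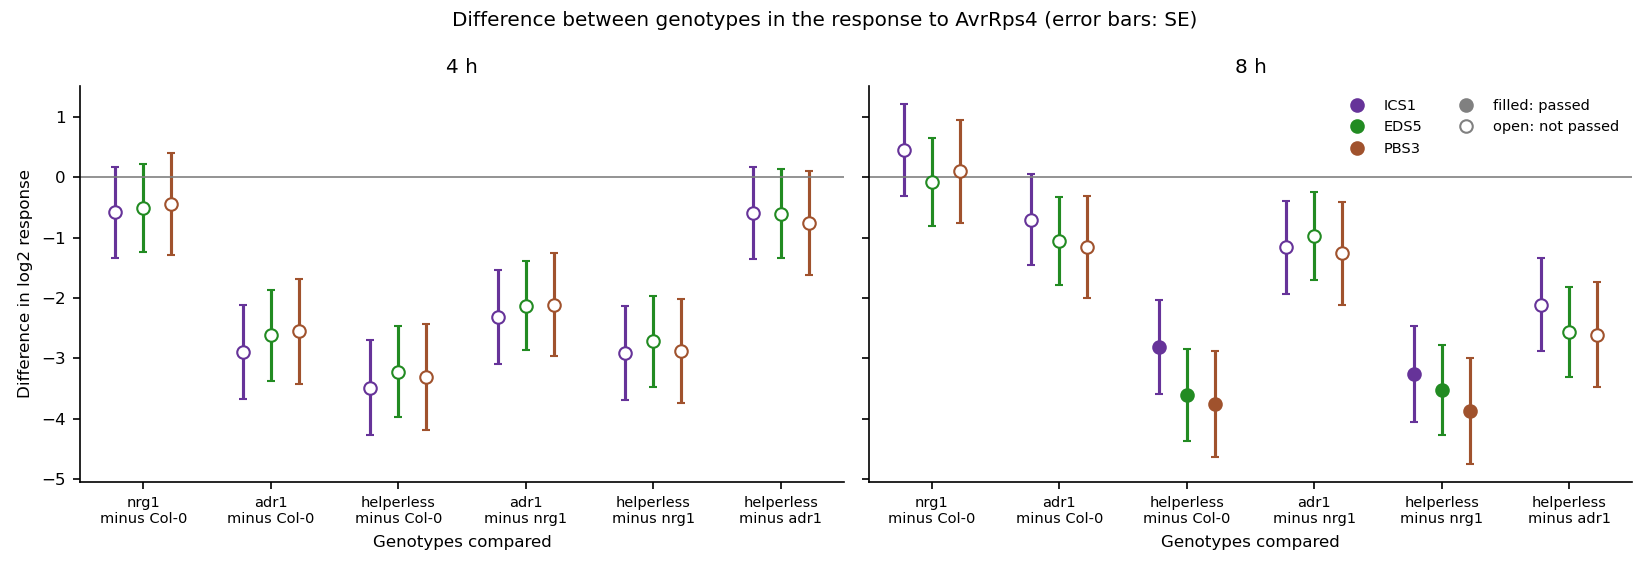
Difference in the log2 response to AvrRps4 between pairs of genotypes at 4 and 8 h for ICS1, EDS5 and PBS3; bars are standard errors, and filled points passed the test. The filled points, all at 8 h, are helperless minus Col-0 and helperless minus nrg1, between -3.87 and -2.81.

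Across all replicates the levels of the 3 genes of the main route were closely correlated, although with EV at 0.5 h in Col-0 only EDS5 of them passed. On log2 CPM, Pearson's r was 0.96 between ICS1 and PBS3, 0.95 between ICS1 and EDS5 and 0.92 between EDS5 and PBS3. Of the other genes, PBS3 ranked 1st and EDS5 8th by r with ICS1. EPS1 ran opposite, with r of -0.68 to ICS1, -0.74 to EDS5 and -0.67 to PBS3. ICS2 was close to unrelated to its copy, at -0.18 over all replicates and -0.37, 0.02 and -0.15 within replicate numbers 1, 2 and 3. Replicates share groups, libraries share depth, and time runs through all of them, so these values are descriptions.

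**Figure D5:**
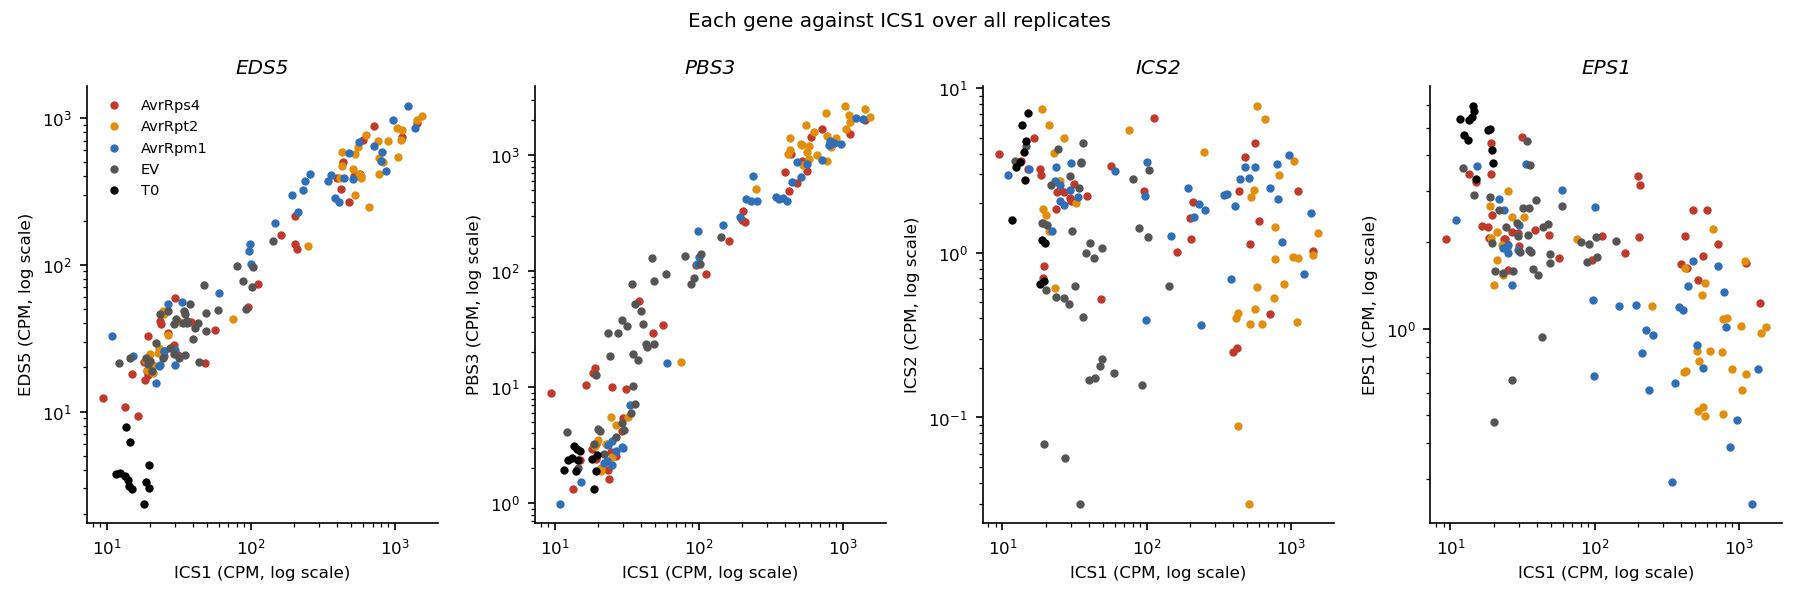
Levels of EDS5, PBS3, ICS2 and EPS1 against ICS1 (CPM, log axes) in all replicates, coloured by bacterium, with values of 0 drawn at 0.03 CPM. Over all replicates EDS5 and PBS3 rise with ICS1 (r 0.95 and 0.96), EPS1 declines (r -0.68) and ICS2 shows little relation (r -0.18). The r values do not show that the genes keep together at low ICS1 levels.

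Outside the pathway, the tested genes most like ICS1 were ARI12 (r 0.96), PAD4 (0.95) and AT1G68200 (0.95). For PBS3 they were PUB54 (0.98), AT1G77810 (0.97) and AT1G65481 (0.97), and for EDS5 AT3G47540 (0.96), AT3G60420 (0.95) and BAP2 (0.95). ICS2 had weaker partners, SQS2, SPL12 and AT3G55940 at 0.77 each, and EPS1 had SVP (0.82), AT2G26730 (0.81) and CYP705A21 (0.81).

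The genes that feed the pathway and compete for its substrate were compared between EV at 4 h and T0 in Col-0, where 23.4% of all genes were called higher and 26.1% lower. Of 10 genes of the chorismate supply, which make the precursor in plastids, 6 were higher and 0 lower with EV at 4 h than at T0 in Col-0, with a median of 2.06 against 0.02 for all genes. The largest changes were DHS3 at 3.41 ± 0.37, EPSPS at 3.40 ± 0.35 and EMB1144, the chorismate synthase, at 3.25 ± 0.33. Phylloquinone synthesis from isochorismate, the other use of this intermediate in plastids, went the other way: all 5 genes were lower, with a median of -3.34. AAE14 changed by -4.36 ± 0.88, PHYLLO by -3.54 ± 0.70 and NS by -3.34 ± 0.60. The 4 photosynthetic marker genes summed to 3452 to 8675 CPM with EV at 4 h and 36540 to 49290 CPM at T0 over the 4 genotypes, and their part in these results was not tested. EDS5H, the closest relative of EDS5, was lower too (-2.01 ± 0.44, adjusted p = 5.55e-05). In the chorismate mutase and phenylalanine route, which starts the other path to salicylic acid, 4 of 8 genes were higher and 1 lower, with PAL1 at 3.93 ± 0.47 and PAL3 at -1.61 ± 0.45.

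Among 18 regulators of ICS1 transcription, 10 were higher and 1 lower with EV at 0.5 h against T0 in Col-0, when ICS1 itself had not passed, with a median of 2.19 against -0.03 for all genes, of which 14.1% were called higher and 9.22% lower. WRKY46 led at 5.40 ± 0.74, followed by CBP60g at 4.88 ± 0.53. With EV at 4 h 11 were higher and 2 lower, beside the 23.4% and 26.1% of all genes, led by ANAC019 at 7.33 ± 0.86, a NAC factor known to repress ICS1, and by ANAC055 at 5.82 ± 0.73.

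The same list was then read with the effectors over EV in Col-0. It holds known drivers of ICS1, such as SARD1, beside repressors such as ANAC019, so its counts give no direction for ICS1. At 4 h 2 of 18 regulators were higher with AvrRps4, namely PAD4 (2.32 ± 0.51) and EDS1 (1.79 ± 0.48), 5 with AvrRpt2 and 6 with AvrRpm1, and 0 were lower. The shares of all genes called higher were 0.665%, 2.43% and 8.91%. PAD4 led with AvrRpt2 at 3.31 ± 0.53 and SARD1 followed at 3.20 ± 0.62. At 8 h 4 were higher with AvrRps4, 6 with AvrRpt2 and 6 with AvrRpm1, where 3.84%, 10.2% and 17.1% of all genes were. With AvrRps4 at 8 h PAD4 was at 3.53 ± 0.54 and SARD1 was at 2.96 ± 0.61. With AvrRpm1 at 8 h the leading regulators were ANAC055 at 2.80 ± 0.61, ANAC072 at 2.55 ± 0.68 and WRKY28 at 2.45 ± 0.61, while PAD4 was at 1.37 ± 0.50. Set directly against AvrRpt2 at 8 h, AvrRpm1 gave 5 lower regulators in Col-0, WRKY46 (-2.29 ± 0.63), PAD4 (-2.08 ± 0.51), EDS1 (-2.03 ± 0.48), SARD1 (-2.0 ± 0.59) and CBP60g (-1.5 ± 0.46), and 1 higher, TCP9 (1.40 ± 0.38), in the comparison in which PBS3 was lower. Of all genes 5.02% were called lower and 7.87% higher there. In helperless minus Col-0 for AvrRps4 at 8 h, 2 of 18 regulators passed, both lower: PAD4 at -3.93 ± 0.72 and SARD1 at -3.41 ± 0.83, where 1.76% of all genes were called lower. The values over EV at 8 h and those of helperless minus Col-0 include the libraries that go against their label. The comparison of AvrRpm1 with AvrRpt2 in Col-0 uses none of them. Of 9 genes of the salicylic acid response, 4, 2 and 3 were higher with AvrRps4, AvrRpt2 and AvrRpm1 at 4 h in Col-0 and 4, 6 and 2 at 8 h, and 0 were lower, beside the same shares of all genes. Of 7 genes of salicylic acid modification, 2 were higher with AvrRps4 at 4 h, where 0.665% of all genes were. With AvrRpm1 at 8 h 2 were higher and 1 lower, beside 17.1% and 11.8% of all genes. Counts of this list in the other effector comparisons are not given here. DLO1, which hydroxylates the hormone, was higher with AvrRps4 at 4 h (5.38 ± 0.87) and AvrRpm1 at 8 h (5.22 ± 0.81). Its median over all replicates was 0.0959 CPM and its highest level 38.8 CPM, so the size of these changes is uncertain. The value at 8 h includes the libraries that go against their label.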

How the data were processed

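Poly(A)-selected RNA of leaf discs was sequenced as 50-base single-end reads, per the labels' protocols. Per the submitters' processing notes, FastQC 0.11.7, Trimmomatic 0.36, HISAT2 2.1.0 and featureCounts (Subread) were used with TAIR10; the strand setting is not given in the sources used here. The authors deposited raw counts per gene for 305 libraries. Here, libraries of the same genotype, bacterium, time and replicate number were summed, which gave 156 replicates (149 of 2 libraries, 7 of 1), and the labels do not say whether the paired libraries are technical. Libraries of the same replicate were more alike than those of different replicates of a group (median chi-square per degree of freedom 16.57 and 42.55). The fit with libraries not summed counts them as separate samples, so its p-values can be too small and its added calls are weak evidence. Replicate totals had a median of 11021790 counts, and a level from a few counts carries the corresponding counting error.

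edgeR 4.0.16 in R 4.3.3 (TMM factors, filter on low counts, quasi-likelihood test) was fitted on all 52 groups and 19687 genes, with Benjamini-Hochberg adjustment over all genes in each of 102 comparisons. A change passed where the adjusted p was under 0.05 and the log2 fold change was 1 or more in size. The test was also run on counts simulated with the same fixed spread for all genes and with changes only in genes above a low level. That setting does not cover the wider spread of some groups or the low counts of ICS2 and EPS1. Differences between genotypes are interaction terms of that fit. DESeq2 1.42.0 was one of the alternatives. Replicate numbers were checked for pairing: in 26 of 66 comparisons all 3 correlations of deviations were over 0.1 (median r 0.192), and the labels give the numbers no meaning. The main fit stayed without a block in all comparisons, those 26 included, as planned, so its p-values do not use any pairing. A block on the replicate number over all groups was one of the alternatives, and the blocked value is given where it changes a call. Groups were named from the sample titles.

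The 5 genes were given by name, and the gene lists and tests were chosen with earlier results of these data known. Named genes are the 5 members, the 3 genes with the highest r to each, and the passing list members with the largest changes, and PAD4 with AvrRpm1 at 8 h was chosen after its value was seen. Promoters were cut from the TAIR10.1 genome by its annotation, since no promoter table was used here; coordinates are TAIR10.1. EXPA18, a root marker on the list, was not analysed here.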

Additional observations from a re-analysis of the deposited data

Results flagged for a closer look

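The response to AvrRps4 at 8 h differed between genotypes by a test of the difference itself. In helperless minus Col-0 the log2 difference was -2.81 for ICS1, -3.61 for EDS5 and -3.76 for PBS3. In helperless minus nrg1 it was -3.26 for ICS1, -3.53 for EDS5 and -3.87 for PBS3. All 6 passed with edgeR and with DESeq2, and none passed without the libraries whose ADR1-L1 to ADR1-L2 ratio goes against their label. Single replicates were not screened for outliers, since each group has 3.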

How the results depend on the processing

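Of 120 calls of a gene in a comparison, 118 were kept with RLE factors, 115 with no filter on low counts, 119 with DESeq2, 120 with libraries not summed, 108 without the libraries that go against their label and 97 of 115 with the groups of the comparison alone. Leaving out replicate 1, 2 or 3 kept 114, 81 and 92. With the replicate number as a block 120 were kept and 2 gained, ICS2 with AvrRpt2 in Col-0 at 8 h and EPS1 with EV at 0.5 h in adr1. In both of these comparisons all 3 correlations of deviations were over 0.1. No other call changed, so that Col-0 at 8 h had 13 calls of effector over EV against 12. Over the replicates left out, effector over EV in Col-0 at 4 h had 3 to 9 calls (9 with all), and effector against effector had 0 to 4 (3 with all; 9 with libraries not summed). Mutant minus Col-0 had 0 to 1 calls at 4 h (0 with all; 5 with libraries not summed) and 0 to 2 at 8 h (3 with all; 0 without the libraries that go against their label). Between mutants there were 0 to 3 (3 with all; 0 without those libraries, 6 with libraries not summed, 0 with the groups of the comparison alone). Mutant against Col-0 at T0 and under EV had 0 calls, and 1 with libraries not summed. The AvrRpt2 response of ICS2 in adr1 minus nrg1 at 8 h was -3.85 to 0.31 with a replicate left out (0.31 without replicate 1) and -1.92 with all, and passed in none of these. The causes were not tested. ICS2 and EPS1, with at most 86 and 83 counts in a replicate, are limited by depth.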
